A study of Mus musculus with 12 samples.

Results

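The genes described here are 111 genes that flank Pramef12, the gene edited in this mouse line, on chromosome 4 of GRCm38. Pramef12 runs from 144391674 to 144408464 on the minus strand, and a gene was taken where it lay wholly within 5 Mb of it, between 139391674 and 149408464, and had at least 10 counts in at least 3 of the 12 samples. Of 315 annotated genes in that window, 20 were left out by name (symbols that start with Pram, Padi or Sdh, and Pax7, Igsf21, Prdm2 and Casz1, with Pramef12 itself), and 184 had too few counts. Of the 111 genes, called flanking genes below, 44 lay at lower and 67 at higher coordinates than Pramef12, and 78 were protein coding and 19 processed pseudogenes. In the whole series, 17653 of 49585 genes met the same count rule.

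PolyA RNA was sequenced from whole testes of mice at postnatal day 2 (P2) and day 7 (P7), with 3 samples in each of 4 groups. The Null group was homozygous (Pramef12-/-) and the Het group heterozygous (Pramef12+/-) for a short CRISPR/Cas9 deletion just after the start codon of Pramef12, so the controls also carried 1 edited copy. All mice were labelled B6D2F1, the name of a cross between C57BL/6 and DBA/2 mice, and the labels do not say which parental copy of chromosome 4 each animal carried. Libraries are named below by age, genotype and the number in their title (P2 Het 1 to 3, P2 Null 1 to 3, P7 Het 4 to 6, P7 Null 4 to 6). Per the study's methods a replicate was an animal or a single testis of an animal, and the labels do not tell these apart.

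Genes that lie close together on a chromosome are usually inherited together. In a line made by editing 1 chromosome and kept on a mixed background, mice sorted by genotype at the edited gene are therefore also sorted, in part, by the copies of its neighbours, and a difference carried in this way may be seen at more than 1 age. In the young testis, Sertoli cells and other somatic cells surround a small and expanding population of germ cells, the spermatogonia, in which Pramef12 is expressed. The comparison made here was whether the flanking genes differed between Null and Het testes in the same direction at P2 and at P7, and how that varied with distance from Pramef12.

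Depth was similar in all libraries, from 14438781 to 21043245 counts, and the flanking genes took 0.439% to 0.480% of them. Pramef12 itself had 156, 234 and 355 counts in the P2 Het and 99, 45 and 66 in the P2 Null libraries, and 1645, 1630 and 1384 in the P7 Het and 520, 357 and 471 in the P7 Null libraries. All Null libraries lay below all Het libraries of their age, a log2 difference of -1.99 at P2 (edgeR adjusted p of 0.125, which does not pass the threshold of 0.1) and of -1.72 at P7 (adjusted p of 0.00181). These are counts over the whole gene, reads within the deleted part were not examined, and germ cell markers also differed between the groups, so they check the labels only in part. Levels are given in CPM, which sets the count of a gene against the size of its library, here with the TMM effective library sizes of each age. Distances are in Mb from Pramef12 and are negative for lower coordinates. The germ cell markers fixed for the tissue were present in every library, and their summed level was 502, 549 and 579 CPM in P2 Het against 305, 354 and 404 CPM in P2 Null testes, and 1302, 1609 and 1657 CPM in P7 Het against 659, 726 and 951 CPM in P7 Null testes. Of these 10 markers, 2 were lower in Null testes at P2 and 10 at P7 (edgeR quasi-likelihood test, adjusted p below 0.1). Of 8 Sertoli cell markers, 6 were higher at P7 and 0 at P2. In bulk tissue, fewer cells of a type and less RNA per cell cannot be told apart. Leydig, peritubular, macrophage, endothelial and red blood cell markers were also present; of these lists, only the peritubular one had a marker past the test, 1 of 4 lower at P7, and of 5 markers of the epididymis and efferent duct 2 were at 0 in every library of each group.

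Among the flanking genes, 3 libraries stood apart from the others of their age, and they did not share a genotype. They were P2 Het 3, P7 Het 4 and P7 Null 6. They were singled out after the values of flanking genes were seen, so what follows on them is a description, and each count of the genotype comparison is given below with and without them. Spata21, Agtrap, Fbxo44, Pdpn, Gm20707, Zfp990, Casp9, Clcn6 and Pgd were likewise named after their values were seen.

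Spata21 (ENSMUSG00000045004, plus strand, 141088333 to 141112760, distance -3.28 Mb) is named for its expression in spermatogenesis. Its level was 51.4, 40.4 and 5.80 CPM in the P2 Het and 56.2, 53.1 and 42.8 CPM in the P2 Null libraries. At P7 it was 2.52, 17.6 and 15.3 CPM in Het 4, 5 and 6 and 46.5, 61.6 and 3.85 CPM in Null 4, 5 and 6. P2 Het 3, P7 Het 4 and P7 Null 6 were thus far below every other library of their age, and the highest P7 library had 24.4 times the level of the lowest. P7 Het 5 and 6 lay between the low and the high P7 libraries.

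Agtrap (ENSMUSG00000029007, minus strand, 148077061 to 148088031, distance 3.67 Mb), which encodes a protein that binds the type 1 angiotensin II receptor, had the same libraries low on the other side of the edited gene. At P2 it was at 96.0, 82.2 and 25.98 CPM in Het 1, 2 and 3 and at 89.0, 92.5 and 92.2 CPM in the Null libraries. At P7 it was at 29.1, 61.8 and 62.4 CPM in Het 4, 5 and 6 and at 123, 114 and 31.7 CPM in Null 4, 5 and 6. The libraries of 1 genotype differed more from each other than the group means did, and Null over Het at P7 came to 0.81 on the log2 scale (standard error 0.47, edgeR adjusted p of 0.289).

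Fbxo44 (ENSMUSG00000029001, minus strand, 148152800 to 148160482), an F-box protein that selects targets for ubiquitin ligases, was at 4.88, 4.87 and 0.821 CPM in P2 Het 1, 2 and 3 and at 7.11, 7.38 and 5.44 CPM in P2 Null testes. At P7 it was at 1.75, 4.06 and 5.03 CPM in Het 4, 5 and 6 and at 11.6, 10.9 and 1.86 CPM in Null 4, 5 and 6. Pdpn (ENSMUSG00000028583, minus strand, 143267431 to 143299564, distance -1.09 Mb) encodes podoplanin, a membrane glycoprotein of lymphatic and epithelial cells. It was at 94.7, 99.7 and 45.6 CPM in P2 Het 1, 2 and 3, at 97.2, 98.9 and 106 CPM in P2 Null, at 48.0, 77.2 and 74.6 CPM in P7 Het 4, 5 and 6 and at 134, 144 and 58.5 CPM in P7 Null 4, 5 and 6. In both genes the same 3 libraries were the lowest of their age, and the P7 Het 5 and 6 libraries were again between them and P7 Null 4 and 5.

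The promoters of these 4 genes are shown because their transcripts were lowest in the same 3 libraries although they lie on both sides of Pramef12. They are RefSeq sequences of GRCm38.p6, 300 bases long and read on the strand of the gene, with 50 bases after the start site. Capitals mark the GC box GGGCGG, the TATA box TATAAA and the CCAAT box CCAAT, searched on both strands, and no marked motif overlapped another. They are chr4:141088095-141088394 on the plus strand for Spata21, and chr4:148088015-148088314, chr4:148160045-148160344 (1 of 3 listed for the gene) and chr4:143299515-143299814 on the minus strand for Agtrap, Fbxo44 and Pdpn.
Spata21: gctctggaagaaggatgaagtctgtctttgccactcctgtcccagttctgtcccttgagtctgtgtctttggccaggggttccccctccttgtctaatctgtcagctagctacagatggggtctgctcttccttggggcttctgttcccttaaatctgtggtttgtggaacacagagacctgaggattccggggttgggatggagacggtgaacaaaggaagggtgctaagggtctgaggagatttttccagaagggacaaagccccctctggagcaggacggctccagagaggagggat
Agtrap: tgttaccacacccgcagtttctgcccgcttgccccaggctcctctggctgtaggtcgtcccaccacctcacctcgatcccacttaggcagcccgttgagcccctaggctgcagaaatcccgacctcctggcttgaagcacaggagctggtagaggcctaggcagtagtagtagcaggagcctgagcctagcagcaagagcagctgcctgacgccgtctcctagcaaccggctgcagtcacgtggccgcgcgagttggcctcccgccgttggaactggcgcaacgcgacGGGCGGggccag
Fbxo44: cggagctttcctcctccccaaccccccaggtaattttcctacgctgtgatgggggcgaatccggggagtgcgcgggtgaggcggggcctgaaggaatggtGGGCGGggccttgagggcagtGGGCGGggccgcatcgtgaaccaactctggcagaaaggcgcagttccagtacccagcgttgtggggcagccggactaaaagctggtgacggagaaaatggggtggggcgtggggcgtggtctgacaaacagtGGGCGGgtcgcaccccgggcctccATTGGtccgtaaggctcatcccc
Pdpn: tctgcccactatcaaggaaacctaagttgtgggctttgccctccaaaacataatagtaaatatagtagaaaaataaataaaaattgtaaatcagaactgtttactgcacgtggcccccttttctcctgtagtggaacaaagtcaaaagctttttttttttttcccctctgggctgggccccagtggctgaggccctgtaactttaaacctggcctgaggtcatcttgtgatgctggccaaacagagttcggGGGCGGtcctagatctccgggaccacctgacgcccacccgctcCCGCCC

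The 4 promoters did not share a motif among those searched. Agtrap held 1 GC box, Fbxo44 3 GC boxes and 1 CCAAT box, Pdpn 2 GC boxes and Spata21 none of the motifs. Of all 32851 promoters of this length in the table, 35.7% held a GC box, 13.6% a TATA box and 37.4% a CCAAT box. GC content was 54.0% for Spata21, 64.7% for Agtrap, 65.3% for Fbxo44 and 48.7% for Pdpn. A promoter was listed for 69 of the 111 flanking genes.

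**Figure D1:**
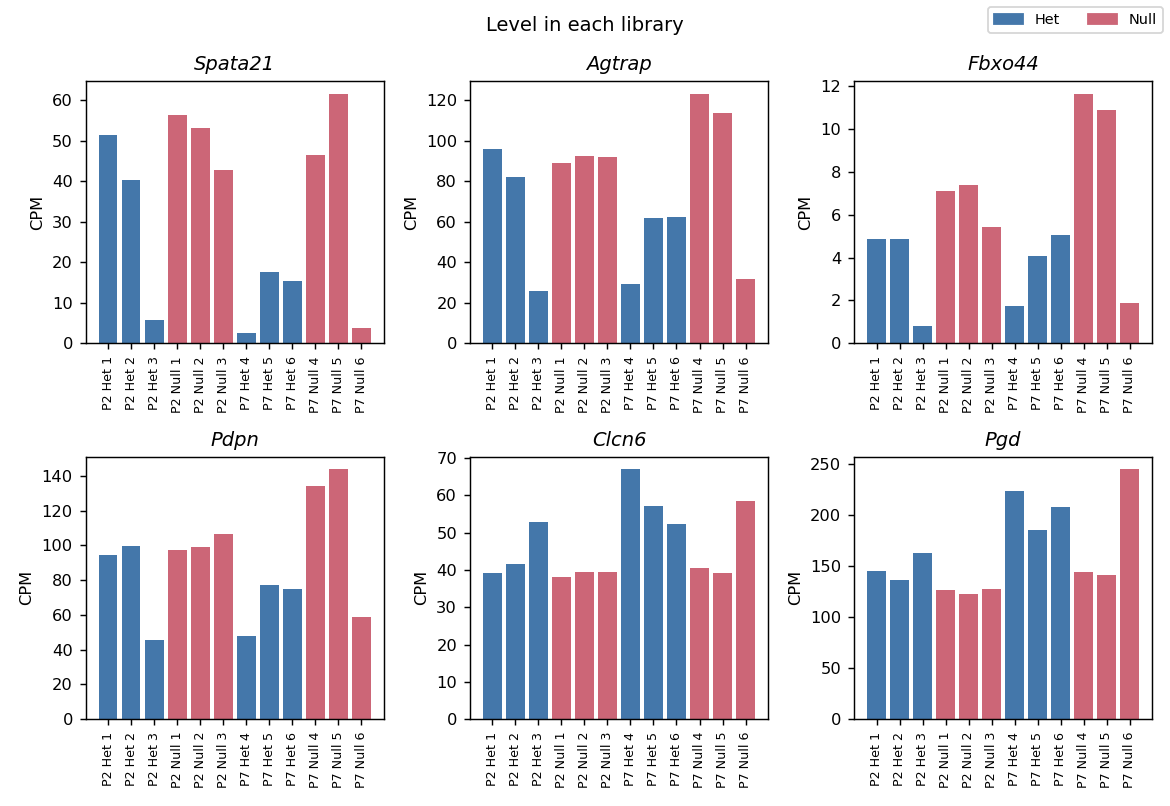
Level in CPM (vertical axes from 0) of Spata21, Agtrap, Fbxo44, Pdpn, Clcn6 and Pgd in each of the 12 libraries, blue for Het and red for Null. P2 Het 3, P7 Het 4 and P7 Null 6 are the lowest libraries of their age for the first 4 genes (Spata21 at 5.80, 2.52 and 3.85 CPM) and the highest for Clcn6 and Pgd.

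Other flanking genes went the opposite way in the same libraries. Pgd, an enzyme of the pentose phosphate pathway that lies 4.74 Mb above Pramef12, was at 145, 136 and 162 CPM in P2 Het 1, 2 and 3 and at 126, 122 and 127 CPM in P2 Null testes. At P7 it was at 223, 185 and 208 CPM in Het 4, 5 and 6 and at 144, 140 and 244 CPM in Null 4, 5 and 6. Here P2 Het 3, P7 Het 4 and P7 Null 6 were the highest of their age. Clcn6, a chloride transporter of late endosomes 3.60 Mb above Pramef12, was at 39.1, 41.6 and 53.0 CPM in P2 Het 1, 2 and 3 and at 38.0, 39.5 and 39.4 CPM in P2 Null testes. It was at 67.0, 57.2 and 52.3 CPM in P7 Het 4, 5 and 6 and at 40.6, 39.3 and 58.5 CPM in P7 Null 4, 5 and 6, so that the libraries low for Agtrap were high for Clcn6. Dnajc16, Zfp990 and Gm13212 were also among the 6 flanking genes with these 3 libraries highest.

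Over the 107 flanking genes tested in the 12 samples together, the 3 libraries were all the lowest of their age for 23 and all the highest for 6, or 27.1%. Over all 17494 genes tested this held for 1.33%, and over the genes of other chromosomes for 1.04%. Since the libraries were chosen on the flanking genes, the first share has no test, and it is read only beside the others. The 29 genes lay on both sides of Pramef12, 8 of 43 tested at lower and 21 of 64 at higher coordinates, at distances from -3.31 to 4.74 Mb. In 24 of the 29, P7 Het 5 and 6 both lay between the pair P7 Het 4 and P7 Null 6 and the pair P7 Null 4 and 5. None of the 29 was called in the genotype comparison at P7 and 1, Miip, was called over both ages.

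The share varied along the chromosome. In bins of 2.5 Mb from the lowest to the highest coordinates of the window it was 20.6% of 34 genes, 10.0% of 10, 50.0% of 18 and 25.5% of 47, with 2 genes that cross its edges counted. Just outside the window it was 7.50% of 40 genes from 7.5 to 5 Mb below and 0.00% of 26 genes from 5 to 7.5 Mb above Pramef12. A further bin, 10 to 12.5 Mb above Pramef12 and the last of the chromosome with genes tested, had 11 of 63 genes, or 17.5%. On the other side, further bins were also above the share over all genes, with 9.38% of 64 genes from -12.5 to -10 Mb and 5.56% of 36 genes from -15 to -12.5 Mb. By the germ cell marker sums given above, P2 Het 3 had the lowest of the P2 Het group and P7 Het 4 and P7 Null 6 the middle value of their groups. By Sertoli marker sums, P2 Het 3 was the lowest P2 library, at 3311 CPM. P7 Null 6 was the lowest of the P7 Null group, at 3380 CPM, and P7 Het 4 the highest of the P7 Het group, at 2913 CPM. The part of these sums in the flanking genes was not tested. P7 Null 6 had the highest Leydig marker sum of the P7 libraries, 822 CPM against 377 to 500 CPM in the other 5, and the part of this in the flanking genes was not tested.

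**Figure D2:**
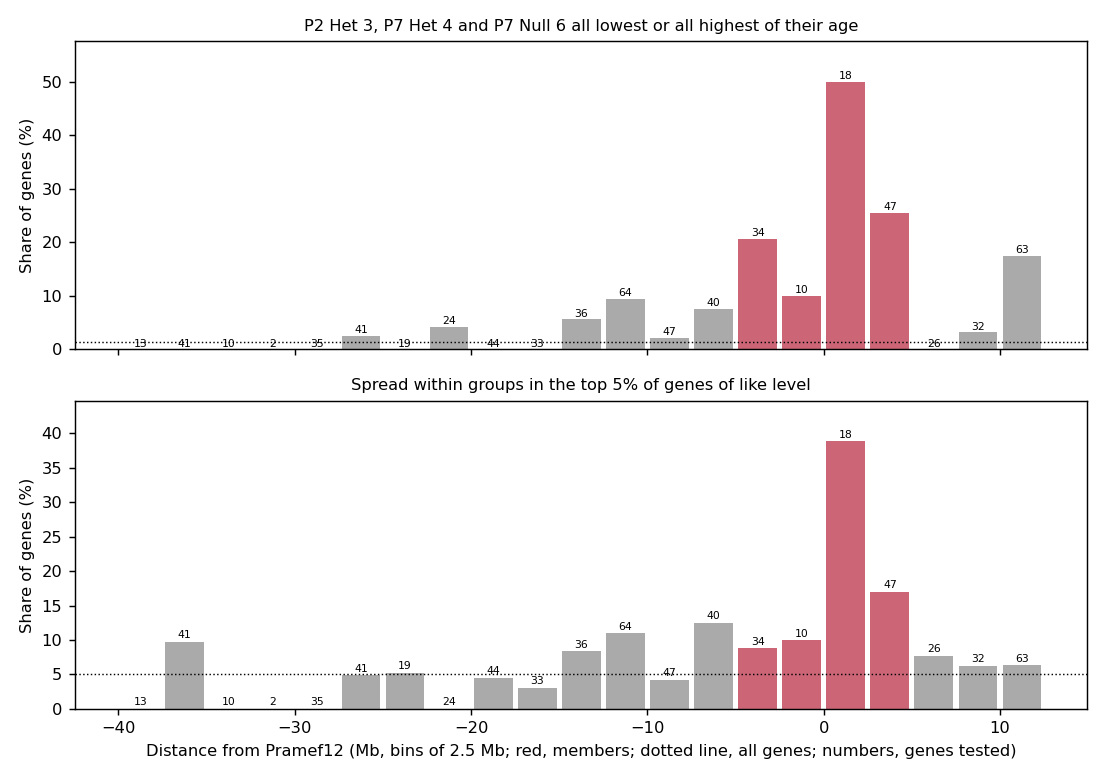
Share of tested genes (vertical axes, percent) in bins of 2.5 Mb along the end of chromosome 4 that holds Pramef12, against distance from Pramef12 in Mb, for genes with P2 Het 3, P7 Het 4 and P7 Null 6 all lowest or all highest of their age (top) and for genes whose spread within groups was in the top 5% (bottom). Red bins hold the 107 flanking genes tested and 2 genes that cross the edges of the window, numbers give the genes tested and the dotted lines are the shares over all genes, 1.33% and 5.03%; the bins 0 to 2.5 Mb above Pramef12 reach 50.0% and 38.9%.

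The spread between samples of 1 group was also ranked, which needs no choice of libraries. The spread uses the same values and rises when 1 library lies apart, so it is a description and not separate evidence. For each gene the SD of log2(CPM + 0.5) within the 4 groups was pooled and ranked among genes of like level. The median was 0.24 for the flanking genes and 0.15 for all genes. Of the 107 flanking genes, 19 were in the top 5% (17.8%, against 5.03% of all genes), and 16 of these 19 were among the 29 genes above. Spata21 and Pdpn were at percentile 99.9 and Agtrap at 99.8. The share was 7.59% of 145 genes 5 to 10 Mb from Pramef12, 7.08% of 240 genes at 10 to 20 Mb and 4.64% of 604 genes beyond. Without P2 Het 3, P7 Het 4 and P7 Null 6, 3 of the 107 flanking genes (2.80%) were in the top 5%. These libraries were singled out on the values of flanking genes, so a lower share without them follows in part from that choice.

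A single component described much of this on each side of the edited gene. The first principal component of the levels, centred within each age, held 61.9% of the variance of the 43 genes at lower and 66.1% of that of the 64 genes at higher coordinates. Genes were not scaled to equal variance, so those of large spread weigh most. At lower coordinates this holds above all for Spata21, with a within-group SD of 1.53 beside a median of 0.24 for the flanking genes. How far the component is shared among the other genes was not tested. On both sides P2 Het 3, P7 Het 4 and P7 Null 6 had the lowest scores, between -0.61 and -0.28. P7 Null 4 and 5 had the highest, between 0.29 and 0.46, and P7 Het 5 and 6 were near 0, between -0.02 and 0.01. The 5 other P2 libraries, 2 Het and 3 Null, were between 0.03 and 0.19 and did not separate by genotype.

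**Figure D3:**
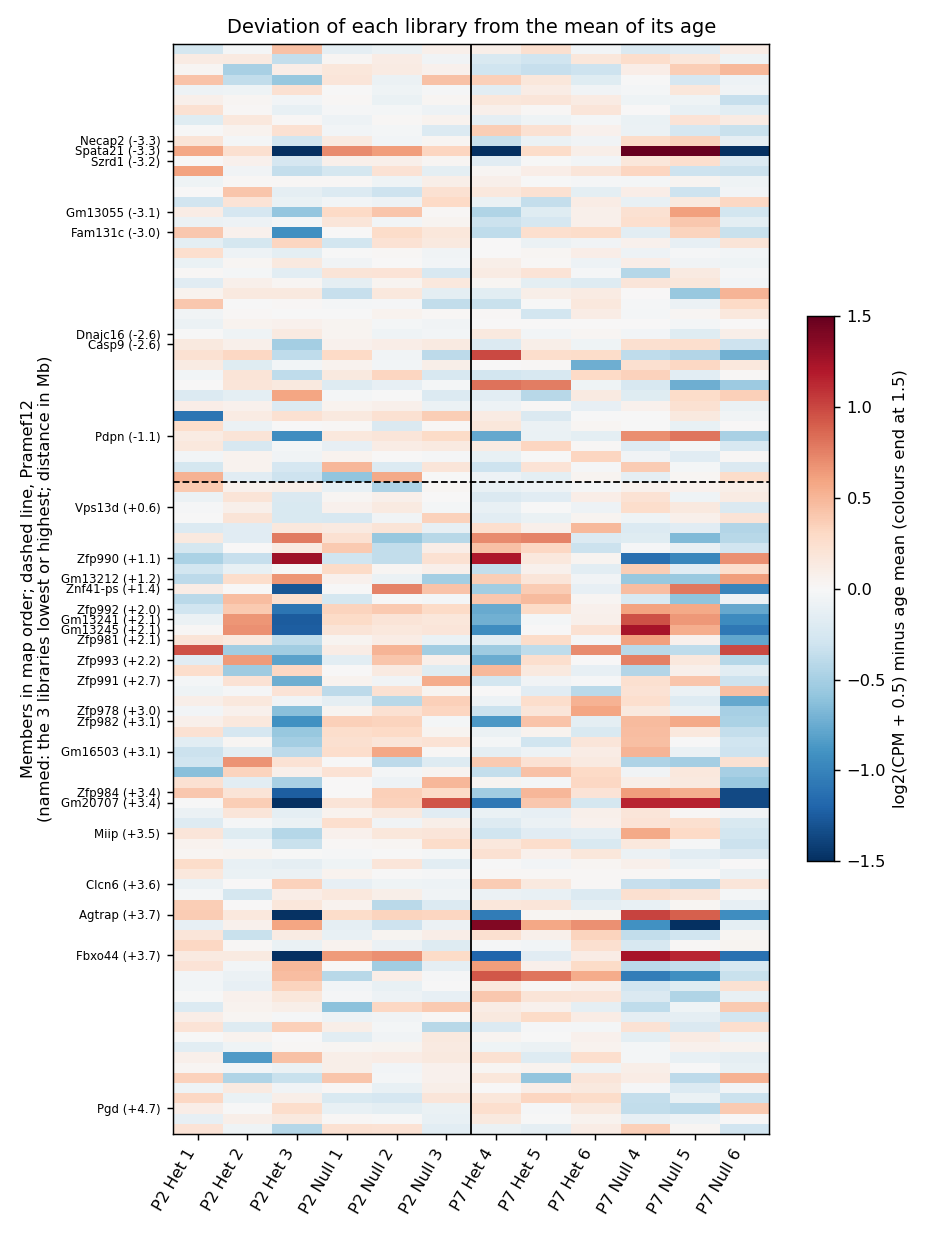
Deviation of log2(CPM + 0.5) from the mean of the age (colour) for the 107 flanking genes tested over both ages, in map order from low to high coordinates (rows), in the 12 libraries (columns). Named rows are genes with P2 Het 3, P7 Het 4 and P7 Null 6 all lowest or all highest, with the distance in Mb; these 3 columns show the same colours above and below the dashed line at Pramef12, while P7 Null 4 and 5 show the opposite ones.

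Many of these genes were the C2H2 zinc finger genes of a repeated cluster between 1 and 3.5 Mb above Pramef12, which encode DNA-binding proteins of a fast-changing family. Of 14 flanking genes with a symbol starting with Zfp, 8 had the 3 libraries lowest or highest. Zfp982 was at 3.64, 3.89 and 1.59 CPM in P2 Het 1, 2 and 3, at 4.54, 4.43 and 3.35 CPM in P2 Null, at 0.927, 3.00 and 1.86 CPM in P7 Het 4, 5 and 6 and at 3.12, 3.37 and 1.37 CPM in P7 Null 4, 5 and 6. Zfp990 was at 0.138, 0.198 and 1.64 CPM in P2 Het 1, 2 and 3 and at 2.27, 0.834 and 0.733 CPM in P7 Het 4, 5 and 6, against 0.224, 0.191 and 0.538 CPM in P2 Null and 0.0481, 0.109 and 1.43 CPM in P7 Null 4, 5 and 6. The noncoding gene Gm20707 was at 0 CPM in P2 Het 3, 0.257 CPM in P7 Het 4 and 0.124 CPM in P7 Null 6, and between 0.831 and 3.04 CPM in the 9 other libraries. Zfp982 and Gm20707 were thus lowest and Zfp990 highest in the libraries that stood apart.

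Values of the zinc finger cluster are uncertain, since its genes resemble each other. Of the 111 flanking genes, 44 shared over 10% of the 50-base windows of their annotated transcripts with another gene, for example 82.2% for Zfp991 and 29.1% for Zfp990, and reads that map to several places had been removed before counting. The pattern was as frequent outside such genes: the 3 libraries were lowest or highest for 17 of the 66 tested genes that shared 10% or less, or 25.8%, and for 12 of the 41 that shared more, or 29.3%. Spata21, Agtrap, Fbxo44 and Pdpn shared 0.287% or less. None of the zinc finger genes was called between Null and Het testes at P2 (9 tested), at P7 (11 tested) or over both ages (14 tested), where the median log2 fold change was 0.07.

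The genotype comparison of the flanking genes at P2 gave no gene past the threshold. Of 97 tested, 0 were called higher and 0 lower in Null testes (edgeR quasi-likelihood test, adjusted p below 0.1), against 0.00605% and 0.0363% of all genes, 0.0423% in either direction. At an unadjusted p under 0.05 the count was 4 by edgeR, against 999 of all 16531 genes, and 1 by DESeq2, against 676 of 31757, which also called 0. The median size of the log2 fold change was 0.18 for the flanking genes and 0.09 for all genes, which were not matched for level. Without P2 Het 3 it was 0.14 for the flanking genes and 0.11 for all genes, and 0 were called. Null and Het libraries did not overlap for 4 flanking genes higher in Null and 7 lower, against 5.23% and 6.62% of all genes.

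At P7, 16 of 98 flanking genes tested were called, 2 higher and 14 lower in Null testes. This was 16.3%, against 20.8% of all genes, of which 7.47% were higher and 13.3% lower. With all libraries the flanking genes were thus not called more often than all genes, but this turned with the libraries. It was 33.7% against 16.8% without P7 Null 6, and 17.2% against 7.39% without P2 Het 3, P7 Het 4 and P7 Null 6. With no filter on low counts it was 21.6% of 111 against 10.6% of 31163 genes. These 2 shares are not alike, since only the flanking genes had to meet the count rule. The lower genes were Rcc2, Crocc, Cela2a, Fhad1, Tnfrsf8, Gm13230, Mfn2, Draxin, Mad2l2, Fbxo2, Disp3, Mtor, Exosc10 and Cenps, and Klhdc7a was among the higher genes. Null and Het libraries did not overlap for 4 flanking genes higher and 19 lower, against 15.2% and 19.9% of all genes. None of the 16 was among the 29 genes that set P2 Het 3, P7 Het 4 and P7 Null 6 apart. The germ cell markers fell in the same libraries, as given above, and their part in these falls was not tested.

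**Figure D4:**
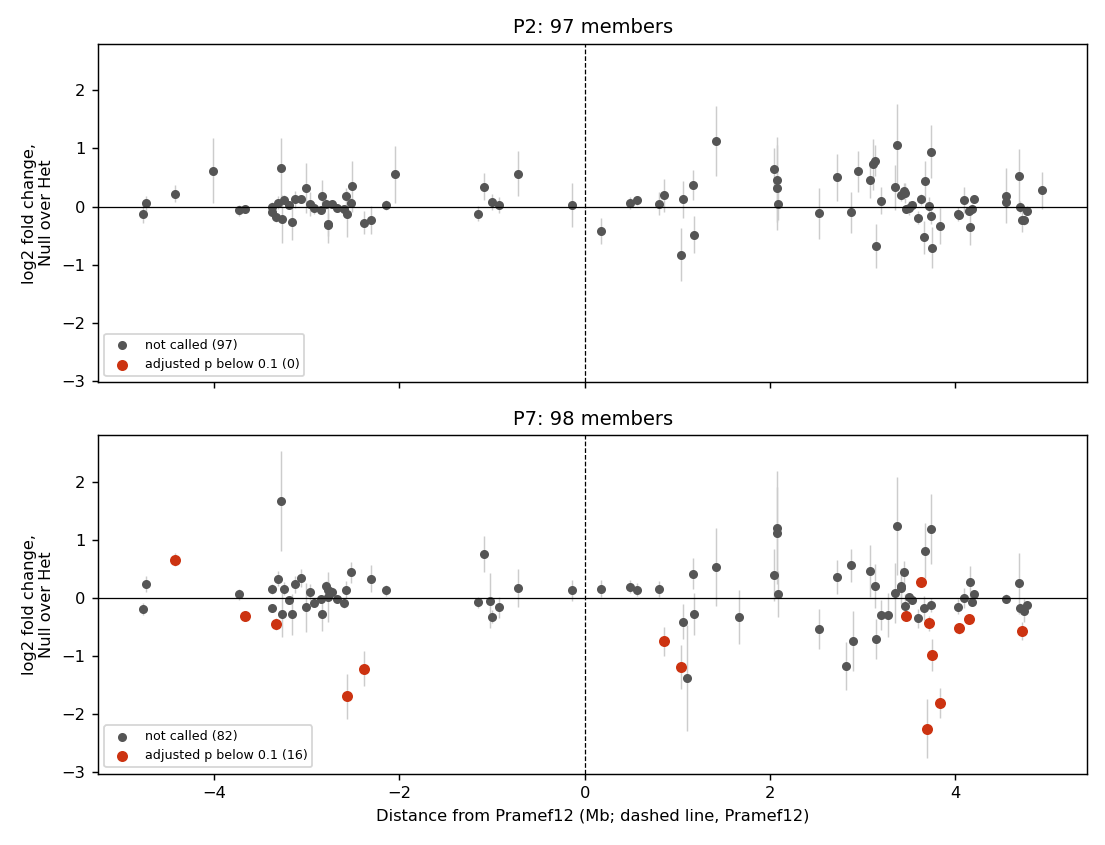
Log2 fold change of Null over Het (vertical axes, bars for the standard error) against distance from Pramef12 in Mb for the flanking genes tested at P2 (97, top) and at P7 (98, bottom). Red points passed an adjusted p below 0.1 (0 at P2 and 16 at P7); they lie at distances from -4.42 to 4.72 Mb, and 1 of 8 genes within 1 Mb is among them.

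Among the genes called at P7, the 5 largest falls without overlap of the groups were in genes at low levels, Draxin, Disp3, Cela2a, Fhad1 and Fbxo2. Draxin, an axon guidance factor (148098437 to 148130698, minus strand), was at 5.25, 2.78 and 3.03 CPM in P7 Het 4, 5 and 6 and at 0.673, 0.217 and 1.49 CPM in P7 Null testes, or -2.25 on the log2 scale (standard error 0.51, edgeR adjusted p of 0.0266). All P7 Null libraries lay below all P7 Het libraries; at P2 Draxin was between 0.238 and 0.875 CPM in all 6 libraries, with too few counts for a test at that age alone. Its start overlaps Mad2l2 on the other strand and the counts did not use strand, so reads of these genes there cannot be told apart. Without P7 Het 4 its adjusted p was 0.102 and its log2 fold change -1.90.

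Disp3, a membrane protein of the Dispatched family (148240264 to 148287965, minus strand), was at 5.61, 5.06 and 4.20 CPM in P7 Het and at 1.06, 1.20 and 2.05 CPM in P7 Null testes (log2 fold change -1.81, standard error 0.26, adjusted p = 0.00658, edgeR). At P2 it was at 1.17, 1.12 and 1.86 CPM in Het and 0.784, 1.33 and 1.20 CPM in Null testes, and the groups overlapped. Cela2a, a pancreatic elastase, was at 2.16, 1.11 and 1.12 CPM in P7 Het and 0.529, 0.489 and 0.310 CPM in P7 Null testes (-1.69, standard error 0.38, adjusted p = 0.0261, edgeR). Of its windows, 15.6% are shared, the most with Ctrc. Its end also overlaps that of Casp9 on the other strand, which was at 53.1 to 78.7 CPM at P7. The counts did not use strand, so reads of these genes there cannot be told apart. Fbxo2, a neighbour of Fbxo44 that recognises glycoproteins, was at 2.11, 1.28 and 1.56 CPM in P7 Het and 0.769, 0.815 and 0.931 CPM in P7 Null testes (-0.98, standard error 0.27, adjusted p = 0.0494, edgeR). These genes were named for falls without overlap at P7, so the separation of their groups there follows from the choice. The calls of Cela2a and Fbxo2 were lost without P2 Het 3, P7 Het 4 and P7 Null 6, at edgeR adjusted p of 0.156 and 0.218. That of Fbxo2 was also lost with DESeq2, at 0.145, and without P7 Het 4, Null 4 or Null 5, at up to 0.182 (edgeR).

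Genes of RNA handling, chromatin and cell division were the list with the most calls at P7, 5 of 9 tested lower and 0 higher, with a median log2 fold change of -0.31 beside 0.01 over all genes, of which 13.3% were lower and 20.8% called in either direction. The lists were chosen with earlier results of these data known, so this count is a description and not separate evidence. All 10 germ cell markers were lower in the same libraries, and their part in the fall of this list was not tested. The 5 lower genes were Rcc2 and Cenps, which act on chromosomes in mitosis, Crocc, Mad2l2 and Exosc10. Crocc is the main protein of the ciliary rootlet, Mad2l2 a subunit in DNA repair and mitotic control, and Exosc10 a nuclease of the RNA exosome. Exosc10 was at 128, 140 and 125 CPM in P7 Het and 105, 105 and 95.1 CPM in P7 Null testes, or -0.36 on the log2 scale (standard error 0.07, edgeR adjusted p of 0.0135). At P2 it was at 104, 98.9 and 96.0 CPM in Het and 91.5, 93.5 and 98.1 CPM in Null testes. The groups were apart at P7 and overlapped at P2. None of these 9 genes had P2 Het 3, P7 Het 4 and P7 Null 6 lowest or highest. Without those libraries Mad2l2 alone of the 5 was still called at P7. Without P7 Het 4 the calls of Rcc2, Cenps and Mad2l2 were lost, without P7 Het 5 those of Rcc2 and Cenps, and without P7 Null 4 that of Cenps; for Rcc2 and Cenps the adjusted p was then 0.102 to 0.139 (edgeR).

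Mtor, the kinase at the centre of growth signalling (148448611 to 148557683, plus strand), was at 168, 176 and 190 CPM in P2 Het and 168, 160 and 155 CPM in P2 Null testes, and at 320, 276 and 274 CPM in P7 Het and 208, 176 and 222 CPM in P7 Null testes. Null differed from Het by -0.15 on the log2 scale (standard error 0.06, adjusted p = 0.804) at P2 and -0.52 (standard error 0.10, adjusted p = 0.0133) at P7 by edgeR. It was the 1 gene called among 4 of the growth signalling list. In the metabolic list, 9 genes were tested at P7, of which Mfn2, a protein of mitochondrial fusion, was lower (-0.31, standard error 0.06, adjusted p = 0.0196, edgeR).

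Klhdc7a, a kelch-domain gene at -4.42 Mb, was the clearest rise. It was at 16.1, 15.6 and 15.9 CPM in P7 Het and 21.4, 25.9 and 28.2 CPM in P7 Null testes (log2 fold change 0.66, standard error 0.11, adjusted p = 0.00964, edgeR). At P2 it was at 17.1, 11.9 and 18.1 CPM in Het and 19.1, 18.3 and 17.6 CPM in Null testes, and the groups overlapped. Tnfrsf8, a receptor of the tumour necrosis factor family 0.859 Mb above Pramef12, was the called gene nearest to it, at 1.699, 1.45 and 2.102 CPM in P7 Het and 1.11, 1.14 and 0.869 CPM in P7 Null testes (-0.74, standard error 0.25, adjusted p = 0.0846, edgeR); with the replicate number as a block its adjusted p was 0.103 and with DESeq2 0.267. Leaving out any 1 P7 library ended its call, at adjusted p from 0.119 to 0.217 (edgeR), while that of Klhdc7a held in each case.

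**Figure D5:**
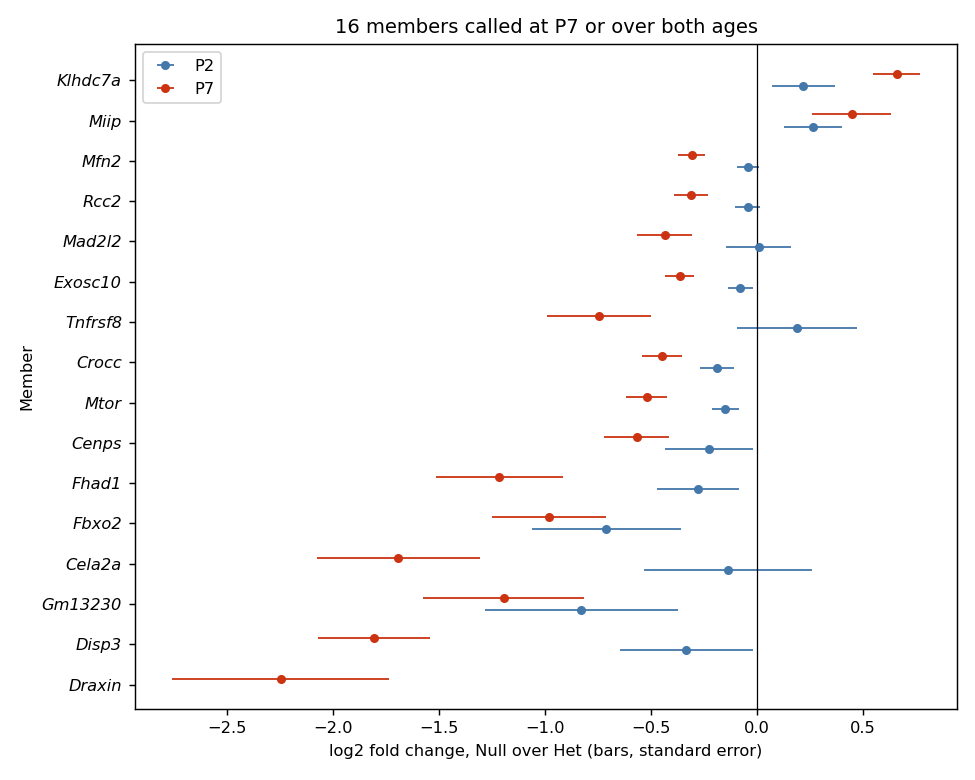
Log2 fold change of Null over Het at P2 (blue) and at P7 (red), with bars for the standard error, for 16 of the flanking genes called at P7 or over both ages. The P7 values run from -2.25 for Draxin to 0.66 for Klhdc7a; the P2 values are nearer 0 for most genes, none passed the test, and Draxin had no test at P2.

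The remaining lists gave few calls. Of 4 ubiquitin ligase and F-box genes 1 (Fbxo2), and of 4 genes of cell death and the tumour necrosis factor receptors 1 (Tnfrsf8), were lower at P7. Of 5 vesicle and lysosome genes 0 were called at P7, with log2 fold changes from -0.35 to 0.33, and 3 of the 5 (Vps13d, Clcn6 and Necap2) were among the genes that set the 3 libraries apart. Dhrs3, which reduces retinal in the testis and elsewhere, was the 1 retinoid gene measured, at 0.19 on the log2 scale for Null over Het at P7 (standard error 0.11, edgeR adjusted p of 0.293). No natriuretic peptide gene and no oogenesin relative of the PRAME family passed the count rule. In all, 50 of the 111 flanking genes were in a list.

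The genes nearest to Pramef12 gave no call apart from Tnfrsf8. The 5 nearest tested at both ages were Gm13123, Gm13082, Gm13042, Anp32b-ps1 and Pdpn at lower and Gm13127, Dhrs3, Vps13d, Tnfrsf1b and Tnfrsf8 at higher coordinates. Vps13d, a lipid transfer protein 0.564 Mb away, was at 267, 285 and 229 CPM in P2 Het and 280, 296 and 263 CPM in P2 Null testes, and at 186, 200 and 190 CPM in P7 Het and 240, 222 and 173 CPM in P7 Null testes. Its groups overlapped at both ages. Within 1 Mb, 8 genes were tested, with a median size of the log2 fold change of 0.08 at P2 and 0.16 at P7, and 5 of 8 had the same sign at both ages. From 1 to 2 Mb the sizes were 0.35 (8 genes) and 0.41 (11 genes), and from 2 to 5 Mb 0.18 (81 genes) and 0.27 (79 genes). From 5 to 10 Mb they were 0.08 (141 genes) and 0.19 (140 genes), near the 0.09 and 0.18 of all genes. The sizes were thus largest at 1 to 2 Mb and fell with distance beyond that, while the 8 genes within 1 Mb had smaller ones. The bins were not matched for level, and the spread within groups differed between them too. Its median SD was 0.17 within 1 Mb, 0.37 at 1 to 2 Mb, 0.24 at 2 to 5 Mb and 0.16 at 5 to 10 Mb. The sizes are therefore not read as an effect of distance. At 1 to 2 Mb, 3 in 10 genes had a spread within groups in the top 5%.

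A difference of the same sign at both ages was found for 68 of the 90 flanking genes tested at both, 37 higher and 31 lower in Null testes. This was 75.6% (95% Wilson interval 65.8% to 83.3%, which treats genes as independent), against 63.8% of all 15928 genes. The P2 and P7 libraries share no controls. The share was 72.3% of 137 genes 5 to 10 Mb away, 70.7% of 225 genes at 10 to 20 Mb and 65.0% of 565 genes beyond. Across the 90 genes the genotype differences of the 2 ages had r = 0.66, and across all genes r = 0.38, a description over genes of the same libraries, which are not independent. How far the share exceeded that of all genes changed with the libraries kept. Without P2 Het 3 the share was 57 of 90, or 63.3%, against 62.6% of all genes, and r was 0.40 and 0.33. Without all of P2 Het 3, P7 Het 4 and P7 Null 6 it was 69.2%, against 61.8%, and r was 0.42 and 0.29.

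Over both ages, the genotype term of an additive model of age and genotype was called for 14 of 107 flanking genes, 3 higher and 11 lower in Null testes. With all libraries this was 13.1%, against 14.1% of all genes, of which 4.66% were higher and 9.39% lower. How the 2 shares compared depended on P7 Null 6, as given at the end of this paragraph. Klhdc7a and Miip were among the 3 higher genes. None of the 11 lower genes was called at P2, and Draxin had no test at that age. The P2 log2 fold changes of the other lower genes ran from -0.83 for Gm13230 to -0.04 for Mfn2. The lower genes were Rcc2, Crocc, Fhad1, Gm13230, Mfn2, Draxin, Fbxo2, Disp3, Mtor, Exosc10 and Cenps, all of which were also called at P7. Several of these calls rested on single libraries: those of Rcc2 and Cenps were lost without any 1 of 9 libraries, that of Mfn2 without any 1 of the 6 at P7, that of Gm13230 without any 1 of 6 (P7 Het 4 and 5, P7 Null 5 and 6, P2 Het 3 and P2 Null 2) and that of Fhad1 without P7 Het 4 or 5 or P7 Null 5 or 6, at adjusted p from 0.104 to 0.210 (edgeR). Miip, an inhibitor of cell migration 3.45 Mb above Pramef12, was at 36.0, 27.8 and 23.4 CPM in P2 Het and 33.0, 35.5 and 35.9 CPM in P2 Null, and at 37.3, 40.8 and 41.6 CPM in P7 Het and 68.5, 56.7 and 37.8 CPM in P7 Null testes. Its groups overlapped at both ages, and its adjusted p was 0.0971 without and 0.107 with the replicate number as a block (edgeR). Its call was lost without any 1 of 9 libraries, P7 Het 4 to 6, P7 Null 4 and 5, P2 Het 2 and 3 and P2 Null 2 and 3, at adjusted p up to 0.210. Without P2 Het 3, P7 Het 4 and P7 Null 6, 5 of 107 were called (4.67%, against 4.09% of all genes). Of these, 3, Klhdc7a and Draxin among them, were called with all libraries, and Fbxo44 and Pgd were not. Without P7 Null 6 alone, 18 of 110 were called, 9 higher and 9 lower (16.4%, against 8.5% of all genes). The shares stayed close without P7 Het 4 alone (6.54%, against 6.61%) and without P2 Het 3 alone (13.6%, against 14.1%).

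Null and Het libraries did not overlap in the same direction at both ages for 4 of the 90 flanking genes, or 4.44%, against 5.51% of all genes. They were Crocc, Fhad1, Mfn2 and Mtor, all lower in Null testes. Crocc was at 67.3, 70.2 and 78.9 CPM in P2 Het and 65.3, 66.1 and 58.6 CPM in P2 Null, and at 89.3, 81.1 and 72.2 CPM in P7 Het and 65.1, 57.8 and 54.8 CPM in P7 Null testes (over both ages -0.32, standard error 0.07, adjusted p = 0.0217, edgeR). Fhad1, a forkhead-associated domain gene, was at 2.34, 2.70 and 2.63 CPM in P2 Het and 1.96, 2.096 and 2.27 CPM in P2 Null, and at 5.56, 5.34 and 2.79 CPM in P7 Het and 2.40, 1.58 and 1.86 CPM in P7 Null testes. Its P7 difference of -1.22 on the log2 scale (standard error 0.30, edgeR adjusted p of 0.0343) was not called without P7 Het 4, Het 5 or Null 5, at adjusted p up to 0.123. Mfn2 was at 106, 108 and 104 CPM in P2 Het and 103, 103 and 102 CPM in P2 Null testes. At P7 it was at 129, 115 and 124 CPM in Het and 104, 98.9 and 94.97 CPM in Null testes. In each of the 4 genes the difference was larger at P7 than at P2, and 0 of 107 flanking genes passed the test of a genotype effect that differs between the ages, against 0.514% of all genes (0.0286% higher and 0.486% lower at P7). At an unadjusted p under 0.05 that test gave 11 of 107 flanking genes by edgeR, against 2330 of all 17494 genes, and 8 by DESeq2, against 2102 of 33722, which called 0 flanking genes after adjustment.

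Left in or out, the libraries that stood apart changed which flanking genes were called at P7. Without P7 Null 6, 34 of 101 flanking genes were called, 15 higher and 19 lower (33.7%, against 16.8% of all genes), among them Spata21, Agtrap, Fbxo44 and Pdpn higher and Pgd and Clcn6 lower. Without P7 Het 4, 7 of 100 were called (7.00%, against 10.1% of all genes). Without P2 Het 3, P7 Het 4 and P7 Null 6, 17 of 99 were called, 10 higher and 7 lower (17.2%, against 7.39% of all genes), and 6 of these had been called with all libraries. On 2 Het and 2 Null libraries the log2 difference was then 0.94 for Agtrap (standard error 0.08), 0.88 for Pdpn (standard error 0.08) and 1.73 for Spata21 (standard error 0.16), each at an edgeR adjusted p of 0.0155. In the same 9 libraries these 3 genes were also the flanking genes called for a difference between the ages, with adjusted p from 0.0469 to 0.0784 (edgeR), or 2.80% against 0.0795% of all genes. These samples were left out because of the values of such genes, so the calls are given as the dependence of the result on 3 libraries and not as separate evidence.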

How the data were processed

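Total RNA from whole testes was enriched for mRNA and made into Nextera libraries, which do not mark strand. The authors trimmed reads with cutadapt 1.16, aligned them with HISAT2 2.1.0 to mm10, removed reads mapping to several places and counted the rest per gene without strand with featureCounts 1.6.1; the deposited values are raw counts. Groups came from the genotype and age labels. Gene symbols came from GENCODE M21 (49326 of 49585 IDs).

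Counts of all genes were filtered (filterByExpr, at least 10 counts), scaled by TMM and tested with edgeR 4.0.16 quasi-likelihood fits, with Benjamini-Hochberg adjustment over all genes tested, at P2 (6 samples), at P7 (6 samples), over both ages and for the interaction (12 samples); the threshold was the study's adjusted p below 0.1. Standard errors are the log2 fold change divided by the square root of F. The fits were checked on simulated counts. Deviations of samples with the same number from their group means correlated at 0.16 to 0.46 over 11845 genes in all 6 pairs. Pairs with different numbers ran from -0.41 to 0.195. The labels do not say what a number shares. The main fits did not pair the samples, and the block is an alternative.

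The flanking genes and the lists were chosen with earlier results of these data known. Genes were named where called at P2, over both ages or by the interaction, among the 5 largest rises and 5 largest falls at P7 without overlap, among the 5 nearest on each side, without overlap in 1 direction at both ages, or as examples of a list. Some flanking genes are counted but not reported here by name. No protein table was used, so zinc finger genes were taken by symbol. Alternatives were DESeq2 1.42.0, other scalings and filters, the block, a threshold of 0.05, each sample left out, a single fit, and other choices of flanking genes.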

Additional observations from a re-analysis of the deposited data

Results flagged for a closer look

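Gm13127, a processed pseudogene 0.179 Mb above Pramef12, moved in opposite directions at the 2 ages in every library. At P2 it was at 3.78, 2.90 and 2.95 CPM in Het and 2.52, 1.86 and 2.81 CPM in Null testes (log2 fold change -0.43, standard error 0.22), and at P7 at 3.35, 3.45 and 3.62 CPM in Het and 3.85, 3.86 and 3.91 CPM in Null testes (log2 fold change 0.16, standard error 0.14). The test of the difference between the ages gave an adjusted p of 0.340 (edgeR), so the difference is not past the threshold. Such a pattern held for 65 of 15928 genes tested at both ages (0.408%). Of the transcript windows of Gm13127, 73.0% are shared with Mcrs1, so its counts are uncertain. Dixon's rule on single samples needs 4 or more in a group and was not applied to these groups of 3.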

How the results depend on the processing

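With 0 flanking genes called at P2, 16 at P7, 14 over both ages and 0 for the interaction, the counts depended most on single libraries and on scaling. Leaving out 1 sample gave 7 (without P7 Het 4) to 34 (without P7 Null 6) at P7, with 10 without P7 Het 5 or Null 5, and 7 to 18 over both ages (7 without P7 Het 4, Het 5 or Null 5, and 9 without P7 Null 4 or P2 Null 2). The share of the same sign ranged from 63.3% (without P2 Het 3) to 80.0%. Without P2 Het 3, P7 Het 4 and P7 Null 6, chosen after seeing the data, 5 were called over both ages, 3 for the interaction, and 3 flanking genes were in the top 5% of spread. Scaled on Sertoli markers, the counts were 45 at P7, 33 over both ages and 19 for the interaction, against 53.2%, 28.3% and 23.2% of all genes, with the median of all genes at -0.31, -0.17 and -0.28. With no filter on low counts, 2 were called at P2 (Spata21 and Fbxo44), 24 at P7 and 2 for the interaction (Disp3 and Mtor), against 0.709%, 10.6% and 1.49% of all genes. Those shares include genes of few counts, which the count rule had kept out of the flanking genes. An adjusted p below 0.05 left 8 over both ages. Genes within 2 Mb gave 2 at P7 and 1 over both ages, and genes with at least 100 counts gave 9 and 9, in each case from fewer genes tested. The share over all genes is not given for that threshold or for these choices, so their counts are not compared with it. The replicate number as a block gave 0, 20, 14 and 0 calls, against 0.200%, 29.6%, 14.2% and 2.65% of all genes, and 73.3% of the same sign; of the named calls it ended those of Miip over both ages and Tnfrsf8 at P7. For 33 named genes, 1444 of 1604 alternative values stayed on their side of the threshold, 102 lost the call and 58 gained it; 34 values that were not called changed sign and no called one did. Apart from the constructions just named, the cause of these changes was not tested. With 3 samples a group, differences in genes under about 10 counts were not tested.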

Other observations

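By level per length, the flanking genes spanned a wide range. In P2 Het testes the highest was Efhd2, a calcium-binding actin regulator, at 145 RPKM (CPM per kilobase of exon), followed by Mfap2, a protein of elastic microfibrils, at 119 RPKM and Rcc2 at 74.0 RPKM, with a median of 2.31 RPKM. In P7 Het testes Efhd2 was at 125 RPKM, Rcc2 at 101 RPKM and Mfap2 at 60.03 RPKM, with a median of 2.23 RPKM. Efhd2 was also in the top 5% for spread within groups, at 344, 346 and 205 CPM in P7 Het 4, 5 and 6 and 406, 425 and 382 CPM in P7 Null testes; here P7 Het 6 was the low library.

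Among the flanking genes with a mean above 5 CPM (53 genes), the deviations of P7 Het 4 and P7 Null 6 from their group means had r = 0.90, and those of P7 Het 4 with P7 Null 4 and 5 had r = -0.80 and -0.91. Over all 11845 genes above that level the same 3 pairs had r = -0.14, 0.28 and -0.10. These are descriptions over genes, which are not independent. Deviations from a group mean cancel within the group, so the negative values follow in part from the positive one. P7 Het 4 and P7 Null 6 were also singled out on the values of flanking genes. By chromosome, the share of tested genes with P2 Het 3, P7 Het 4 and P7 Null 6 all lowest or all highest was 5.59% for chromosome 4 and between 0.184% (chromosome 19) and 2.01% (chromosome 14) for the others with at least 100 tested genes.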
